A study of Mus musculus with 2 samples.

Results

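Interleukins and the chains of their receptors were examined in cultured astrocytes from the dentate gyrus (DG) of adult C57BL/6 mice. Every gene whose symbol starts with Il and a digit was taken, which gave 57 genes of the 16302 listed in either of 2 expression tables. They comprised 20 ligands, 36 receptor chains and Il18bp, a soluble protein that binds and blocks IL-18. The IL-1 receptor antagonist Il1rn was counted with the ligands. A single RNA sequencing library was made from wild type (WT) cultures and a single library from β-arrestin 1 knockout (β-arr1 KO) cultures, and the study asked with them how astrocytes lacking β-arr1 differ in the factors of the neurogenic niche. The β-arr1 KO mice lacked the gene in the whole animal and not in astrocytes alone. All cultures were grown in medium with serum, and the cDNA was pooled. With 1 library per genotype, no comparison below has a replicate check or a p-value.

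Interleukins are secreted proteins through which cells of the immune system and of many tissues signal to each other. Most bind a receptor of several chains, in which a private chain recognises the ligand and a shared chain, such as gp130 (Il6st), the common gamma chain (Il2rg) or the IL-1 receptor accessory protein (Il1rap), joins it to pass the signal on. Receptors of the IL-6, IL-2 and IL-10 families signal through JAK kinases and STAT transcription factors, whereas IL-1 and IL-17 family receptors use adaptors that lead to NF-κB. In the brain, astrocytes and microglia both make and receive interleukins.

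Values are FPKM, fragments per kilobase of transcript scaled to the mapped fragments of the library, so levels of different genes can be set side by side. From the steps of the lowest values, the libraries were estimated to hold 9.54 M mapped fragments (WT) and 9.82 M (β-arr1 KO). Arrb1, which encodes β-arr1, was at 7.62 FPKM in WT against 2.72 in β-arr1 KO, with a ratio of 0.358. All 10 astrocyte markers were listed in both libraries, with a summed level of 321 and 369 FPKM, and 4 of them (Aqp4, Slc1a2, S100b and Aldoc) were higher in β-arr1 KO by a ratio above 3/2. All 14 microglia and macrophage markers were listed as well, at a higher summed level of 1747 FPKM in WT against 1316 in β-arr1 KO, so the cultures held RNA of more than astrocytes. Fibroblast and pericyte markers (7 of 8 listed) summed to 638 and 353 FPKM, and oligodendrocyte lineage markers (8 of 8 listed) to 62.3 and 93.7 FPKM. Of 6 endothelial markers, summing to 54.1 and 43.9 FPKM, Pecam1 was above 3/2 and Cdh5 below 2/3. Among T and NK cell markers 3 of 10 were listed, summing to 0.355 and 0.411 FPKM, and Cd3d, Cd3e, Cd3g, Cd4 and Cd8a were in neither table. B cell markers (3 of 4 listed) summed to 0.918 and 0.342 FPKM, and mast cell markers (1 of 5) to 0.482 and 0.368 FPKM. Neuron markers (7 of 8) summed to 45.4 and 60.7 FPKM, of which Tubb3 alone made up 44.7 and 59.8 FPKM. The median of the listed neuron markers was 0.1135 FPKM in WT and 0.1565 in β-arr1 KO. The Y-linked genes Ddx3y, Kdm5d, Uty and Eif2s3y were listed in β-arr1 KO only, and Xist, the RNA of the inactive X chromosome, was at 39.4 FPKM in WT against 29.7 in β-arr1 KO. Both libraries thus held Xist, their sex make-up differed, and its part in any difference cannot be told apart from that of genotype. In cultures of several cell types, fewer cells of a type and less RNA per cell cannot be told apart either.

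Of the 57 genes, 30 were at 1 FPKM or more in WT, β-arr1 KO or both, 9 of them ligands, 20 receptor chains and the last Il18bp. A gene was called changed when its level in β-arr1 KO divided by that in WT exceeded 3/2 or was under 2/3, the limits used by the study. The study applied them to its own selection of genes and reported a smaller share changed. The shares below are for the genes selected here. Il7, Il15 and Il17rb fell, and Il1rl1, Il1rap and Il18bp rose. These 6 genes made up 20% of the 30, and among all 12646 genes at this level 17.8% were changed. The 3 genes that rose compare with 9.56% of all genes higher in β-arr1 KO, and the 3 that fell with 8.28% lower. These shares count 475 genes at this level that a single table listed, whereas all 30 interleukin and receptor genes were in both tables. Among the 12171 genes in both tables, 14.6% were changed, 7.9% higher and 6.74% lower. The share of 20% rests on 6 genes and was not tested against either of these, and the values below describe single genes. By class, 2 of 9 ligands (22.2%) fell, and of 20 receptor chains 2 rose and 1 fell (15% in all). The median log2 ratio, with 0.1 FPKM added to both values, was 0.07 over the 9 ligands and -0.13 over the 20 receptor chains, beside 0.02 over all genes at this level.

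**Figure D1:**
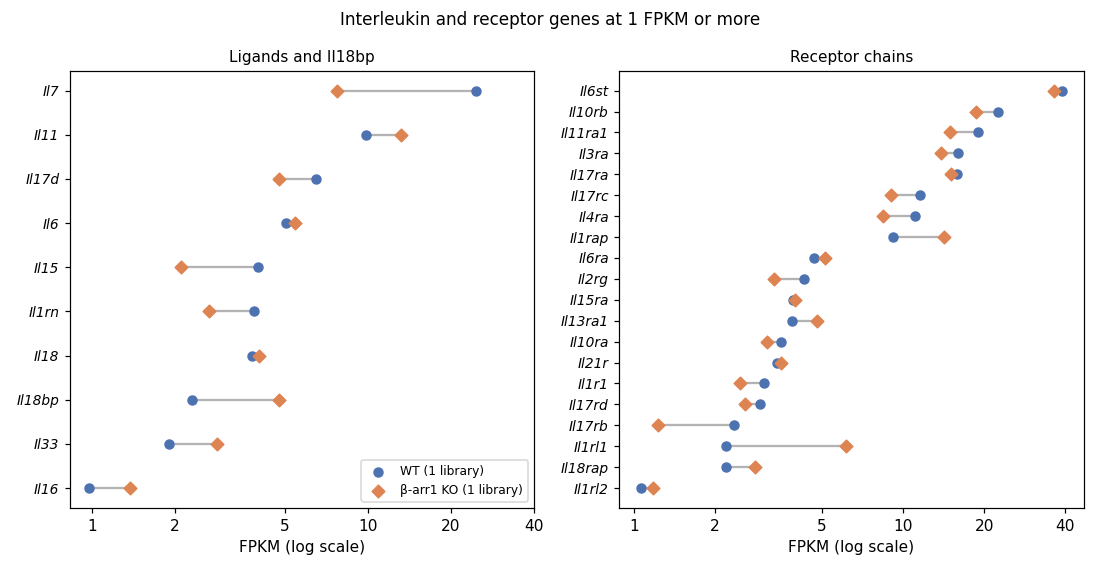
FPKM (log scale) of the 30 genes at 1 FPKM or more in WT (circles) and β-arr1 KO (diamonds), 1 library each, with ligands and Il18bp on the left and receptor chains on the right. Il7 moved from the highest ligand, at 24.6 FPKM, to 7.73 FPKM, whereas Il6st stayed the highest receptor chain at 39.0 and 36.4 FPKM.

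**Figure D2:**
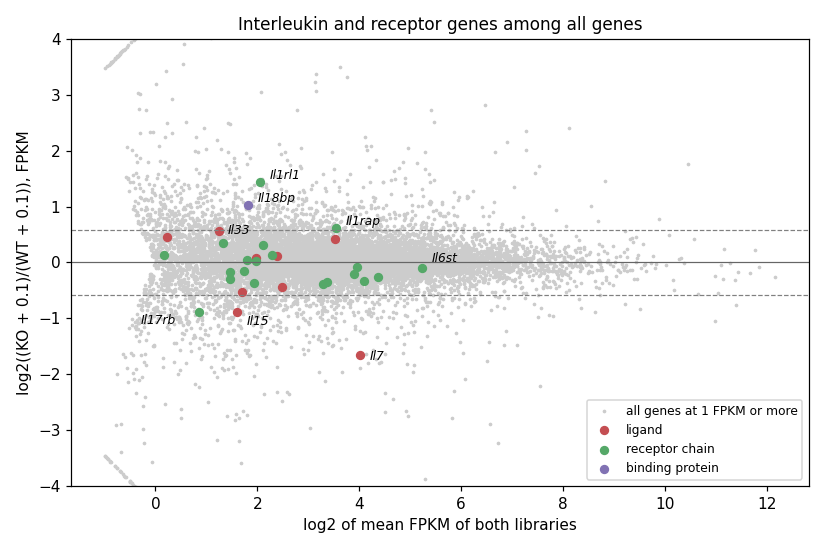
The same 30 genes (coloured) among all 12646 genes at 1 FPKM or more (grey), by log2 of the mean FPKM and by the log2 ratio of β-arr1 KO vs. WT with 0.1 FPKM added to both. Dashed lines mark the limits of 3/2 and 2/3, and 431 genes lie beyond the vertical axis. Il7 and Il1rl1 lie farthest from 0 among the coloured genes.

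The summed level of the 20 ligands was 61.9 FPKM in WT against 47.0 in β-arr1 KO. Il7 alone made up 39.8% of this sum in WT and 16.4% in β-arr1 KO. Without Il7 the sums were 37.3 and 39.3 FPKM. The 36 receptor chains summed to 186 and 173 FPKM.

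The ligands of the common gamma chain family, Il7 and Il15, were the 2 ligands past the limits. Il7 (NCBI gene 16196) encodes a growth and survival factor of lymphocytes. It lies on the minus strand of chromosome 3 of mm9 from 7572068 to 7613765 and has 2 annotated transcripts, of 5 and 6 exons. Its level was 24.6 FPKM in WT, above 81.6% of listed genes, and 7.73 FPKM in β-arr1 KO, above 54.4%. The ratio was 0.314 and the log2 ratio -1.67. From an estimated 621 and 200 fragments, the ratio had a 95% interval of 0.266 to 0.369, which covers counting error only. Il15 (NCBI gene 16168) encodes a cytokine that is held on the cell surface by Il15ra and presented to neighbouring cells. It lies on the minus strand of chromosome 8 from 84855523 to 84926485, with 2 annotated transcripts. Il15 was at 3.99 FPKM in WT against 2.10 in β-arr1 KO, with a ratio of 0.526 (interval, 0.341 to 0.802). The summed level of both genes was 28.6 FPKM in WT against 9.83 in β-arr1 KO, the lowest ratio of sums (0.343) among the ligand families with a member at 1 FPKM or more. Over the same libraries the summed microglia markers had a ratio of 0.753, the fibroblast and pericyte markers 0.554 and the astrocyte markers 1.15, and the part of these cells in the levels of Il7 and Il15 was not tested.

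Of the chains that receive these ligands, Il7r had a ratio as low as that of Il7, and Il15ra and Il2rg were within the limits. Il15ra was at 3.88 FPKM in WT against 3.97 in β-arr1 KO, with a ratio of 1.02 (interval, 0.742 to 1.41). Il2rg, the common gamma chain, was at 4.30 and 3.32 FPKM, with a ratio of 0.772 and an interval of 0.519 to 1.14 that included 1. Il21r, the private chain for IL-21, was at 3.40 and 3.51 FPKM, with a ratio of 1.03. Il7r, the private chain for IL-7, stayed under 1 FPKM at 0.689 FPKM in WT against 0.201 in β-arr1 KO. The numbers of fragments were an estimated 20 and 6, giving a ratio of 0.292, and the interval of 0.0959 to 0.754 left out 1. Il2rb, a signalling chain for IL-2 and IL-15, was at 0.0830 and 0.121 FPKM, which corresponded to an estimated 2 and 3 fragments. The receptors for IL-7 and IL-15 thus each lacked a chain at 1 FPKM. Of 10 T and NK cell markers, Cd3d, Cd3e, Cd3g, Cd4 and Cd8a were among those in neither table. Lck was listed at 0.165 and 0.107 FPKM, Zap70 at 0.104 and 0.304 FPKM, and Klrb1c at 0.0854 FPKM in WT only. The part of such cells in these levels was not tested.

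Among the 57 genes, the gp130 family ligands Il11 and Il6 had ratios above 1 without passing the limits. Il11, which encodes a cytokine of tissue repair, was at 9.86 FPKM in WT against 13.2 in β-arr1 KO, with a ratio of 1.34 (interval, 1.03 to 1.75). Il6, the acute phase cytokine, was at 5.03 and 5.43 FPKM, with a ratio of 1.08 (interval, 0.703 to 1.66). The ratios of their receptor chains lay between 0.789 and 1.10. Il6st, the signal transducer shared by this family, had the highest level of all 57 genes, 39.0 FPKM in WT against 36.4 in β-arr1 KO, 21% of the summed receptor level in each library. Its ratio was 0.934. With an estimated 1875 and 1802 fragments, the interval of 0.875 to 0.997 was the narrowest of the 30 genes on a log scale. Il11ra1, the private chain for IL-11, was at 18.99 and 14.98 FPKM, with a ratio of 0.789 (interval, 0.685 to 0.909). Il6ra, the private chain for IL-6, was at 4.66 and 5.12 FPKM, with a ratio of 1.10 (interval, 0.870 to 1.39). For IL-6 and IL-11, the ligand and all of its receptor chains were therefore at 1 FPKM or more in both libraries.

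Of the 3 genes that rose, Il1rl1 and Il1rap encode receptor chains of the IL-1 family. The third, Il18bp, encodes a protein that binds IL-18, a ligand of this family. The family had 3 ligands and 5 receptor chains at 1 FPKM or more. Il33, an alarmin kept in the nucleus and released from damaged cells, was at 1.89 FPKM in WT against 2.84 in β-arr1 KO. Its ratio of 1.498 (interval, 1.005 to 2.25) lay just inside the upper limit, and was 1.503 with both libraries scaled to the same total. Il1rl1 encodes ST2, the private receptor for IL-33, and was at 2.20 FPKM in WT against 6.13 in β-arr1 KO. This ratio of 2.78 (log2 ratio, 1.48) was the highest of the 30 genes, and counting error over an estimated 108 and 309 fragments left it between 2.23 and 3.50. Il1rap, the accessory chain that both IL-1 and IL-33 receptors need, was at 9.20 FPKM in WT against 14.2 in β-arr1 KO, with a ratio of 1.54 (interval, 1.36 to 1.76). With 1 FPKM added to both values the ratio of Il1rap was 1.49, inside the limit. All 3 genes of the IL-33 system were thus higher in β-arr1 KO, and none of their intervals included 1. With fragments estimated from the median instead of the longest annotated transcript, the interval of Il33 was 0.864 to 2.65. Il33, Il1rl1 and Il1rap had the same locus bounds in both tables. The summed astrocyte markers had a ratio of 1.15 and those of the oligodendrocyte lineage 1.503, and the part of these cells in the levels was not tested. Of 5 mast cell markers, a cell type known for ST2, 4 were in neither table, and Kit was at 0.482 and 0.368 FPKM. The part of mast cells or of any other cell type in the level of Il1rl1 was not tested.

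**Figure D3:**
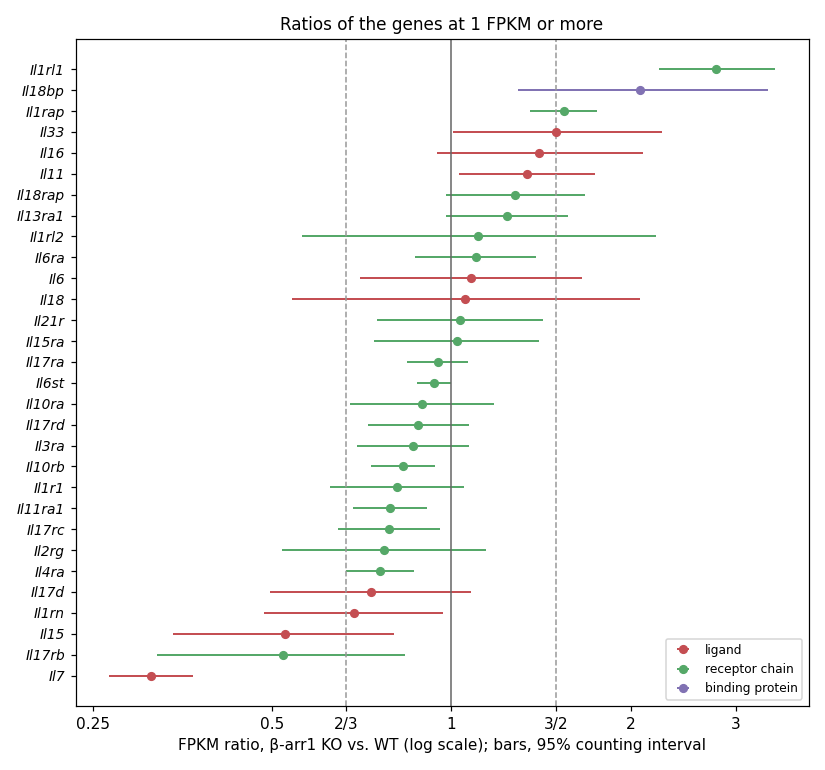
Ratio of FPKM, β-arr1 KO vs. WT (log scale), for the 30 genes at 1 FPKM or more, sorted from the lowest (Il7, 0.314) to the highest (Il1rl1, 2.78). Bars are 95% intervals of counting error from estimated fragments, and dashed lines mark 2/3 and 3/2. The intervals of 14 genes leave out 1, those of 9 genes below it and of 5 above it. No share over all genes stands beside this count. With many fragments an interval can leave out 1 at a ratio near 1, as for Il6st at 0.934.

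Il1rl1 (NCBI gene 17082) lies on the plus strand of chromosome 1 of mm9 from 40496494 to 40522259. The gene is read from alternative start sites, and its transcripts encode a membrane receptor and a shorter, secreted form that captures IL-33. In the GENCODE annotation the start sites lie 10057 bases apart, and the row in both tables began 22 bases inside Il1rl1-001, a transcript of 11 exons from the downstream site. The row gives 1 value, its bounds span Il1rl1-002 of 8 exons as well and do not reach the upstream start, and the membrane and secreted forms cannot be told apart here. Promoter windows of 250 bases before and 50 bases after the start, from RefSeq on GRCm38.p6, are shown for genes past the limits that have an entry, so that the sequence around each start can be read beside its ratio. Of the 57 genes, 43 had an entry, and of the 6 past the limits all but Il7 and Il15. Capitals mark matches, on either strand, to the AP-1 motif (TGANTCA), the STAT motif (TTCNNNGAA), the motif of GATA factors, spelled GATAAG, or the NF-κB consensus, and no matches overlapped.
Il1rl1, upstream start, chr1:40429320-40429619, plus strand: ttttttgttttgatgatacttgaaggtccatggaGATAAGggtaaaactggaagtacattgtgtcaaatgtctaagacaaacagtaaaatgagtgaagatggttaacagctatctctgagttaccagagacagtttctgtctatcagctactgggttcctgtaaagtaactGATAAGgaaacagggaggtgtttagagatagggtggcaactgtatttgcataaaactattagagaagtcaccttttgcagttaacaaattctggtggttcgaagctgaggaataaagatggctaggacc
Il1rl1, downstream start, chr1:40439379-40439678, plus strand: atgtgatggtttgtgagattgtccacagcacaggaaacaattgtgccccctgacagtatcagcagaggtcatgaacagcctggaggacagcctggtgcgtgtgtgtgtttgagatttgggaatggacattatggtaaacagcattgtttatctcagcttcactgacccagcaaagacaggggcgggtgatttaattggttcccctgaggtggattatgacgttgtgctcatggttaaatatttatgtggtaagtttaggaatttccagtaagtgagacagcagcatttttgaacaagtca
Il1rap, chr16:26581455-26581754, plus strand: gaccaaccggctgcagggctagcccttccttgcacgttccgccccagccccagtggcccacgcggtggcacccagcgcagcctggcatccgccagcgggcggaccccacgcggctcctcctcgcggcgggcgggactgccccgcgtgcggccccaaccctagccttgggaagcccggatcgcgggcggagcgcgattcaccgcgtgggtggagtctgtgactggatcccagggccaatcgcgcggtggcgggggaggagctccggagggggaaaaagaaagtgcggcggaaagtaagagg
Il18bp, chr7:102018183-102018482, minus strand: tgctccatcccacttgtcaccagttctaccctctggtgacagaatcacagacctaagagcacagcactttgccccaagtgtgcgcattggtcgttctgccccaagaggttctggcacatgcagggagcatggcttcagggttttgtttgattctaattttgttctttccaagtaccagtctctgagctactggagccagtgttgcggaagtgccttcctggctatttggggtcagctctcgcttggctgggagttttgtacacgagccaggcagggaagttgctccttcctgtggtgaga
Il17rb, chr14:30008847-30009146, minus strand: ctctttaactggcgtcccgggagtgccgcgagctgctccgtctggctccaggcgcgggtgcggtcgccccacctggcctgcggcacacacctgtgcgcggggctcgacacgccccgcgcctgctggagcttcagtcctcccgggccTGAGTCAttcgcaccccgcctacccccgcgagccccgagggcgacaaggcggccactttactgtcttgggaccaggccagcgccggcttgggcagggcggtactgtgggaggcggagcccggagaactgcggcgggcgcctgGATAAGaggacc

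The upstream window of Il1rl1 held 2 GATAAG matches and the downstream window held none of the 4 motifs. The Il17rb window held 1 AP-1 match and 1 GATAAG match, and those of Il1rap and Il18bp held none. Among all 32851 promoter windows, 7.81% held the AP-1 motif, 8.30% the STAT motif, 7.44% the GATA motif and 8.46% the NF-κB consensus. Of the 35 windows of interleukin and receptor genes at 1 FPKM or more, 6, 1, 3 and 4 held them. A match of letters is a description and does not show binding. The windows of the Il1rap and Il17rb promoters had a GC content of 72%, those of Il1rl1 38.7% and 44.7%, and the median of all windows was 52.7%.

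Il18bp (NCBI gene 16068) encodes the secreted inhibitor of IL-18 and lies on the minus strand of chromosome 7 of mm9 from 109163591. It was at 2.30 FPKM in WT against 4.76 in β-arr1 KO, with a ratio of 2.07 (interval, 1.29 to 3.40) from an estimated 27 and 58 fragments. The row of β-arr1 KO ended 625 bases farther than that of WT, at the 5′ side of the gene, and the part of this difference in the ratio was not tested. Il18, whose product is activated by caspase-1, was at 3.81 and 4.02 FPKM, with a ratio of 1.054 (interval, 0.539 to 2.07). Its row of β-arr1 KO started upstream of that of WT and overlapped that of Bco2, which was at 0.550 and 0.802 FPKM. Il18rap, the accessory chain of the IL-18 receptor, was at 2.19 and 2.81 FPKM, with a ratio of 1.28 (interval, 0.978 to 1.68). Il18r1, which binds IL-18, was listed in WT only, at 0.0263 FPKM or 1 estimated fragment.

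Other members of the IL-1 system did not pass the limits. Il1r1, the signalling receptor for IL-1, was at 3.05 FPKM in WT against 2.48 in β-arr1 KO, with a ratio of 0.812 (interval, 0.627 to 1.049). Il1rn, the antagonist that occupies this receptor, was at 3.86 and 2.65 FPKM, with a ratio of 0.688 near the lower limit (interval, 0.486 to 0.968). Estimated with the median transcript length, the interval of Il1rn was 0.312 to 1.47. Il1rl2, the receptor for IL-36, was at 1.06 and 1.17 FPKM, with a ratio of 1.11. The agonists were low. Il1a was at 0.503 FPKM in WT against 0.947 in β-arr1 KO, with a ratio of 1.88 and an interval of 0.794 to 4.79 that included 1. Il1b was not listed in WT and at 0.352 FPKM in β-arr1 KO, an estimated 4 fragments. The 8 receptor chains of the family summed to 18.2 FPKM in WT against 27.3 in β-arr1 KO, of which Il1rap and Il1rl1 made up the greater part in both.

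Most receptor genes of this family are neighbours. Il1r2, Il1r1, Il1rl2, Il1rl1, Il18r1 and Il18rap lie in this order within 467 kb of chromosome 1, from 40141613 to 40608526. Their ratios were not alike along the cluster. Il1r1 had a ratio of 0.812, Il1rl2 1.11, Il1rl1 2.78 and Il18rap 1.28. Il18r1, whose row began 137 bases after the end of the Il1rl1 row, held 1 estimated fragment in WT and was not listed in β-arr1 KO, and Il1r2, the decoy receptor for IL-1, held an estimated 1 and 2 fragments. Other neighbours within 100 kb could differ widely in level. Il17rc was at 11.5 and 9.05 FPKM beside Il17re at 0.114 and 0.236 FPKM, and Il6st at 39.0 and 36.4 FPKM beside Il31ra, which was listed in WT only at 0.0899 FPKM. Il4ra (11.1 and 8.43 FPKM) and Il21r (3.40 and 3.51 FPKM) were neighbours that were both above 1 FPKM.

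In the IL-17 family, Il17rb was the gene past the limits. Il17rb (NCBI gene 50905), the chain for IL-17B and IL-25, lies on the minus strand of chromosome 14 of mm9 from 30808833 to 30822082 in the WT table. It was at 2.36 FPKM in WT against 1.23 in β-arr1 KO, with a ratio of 0.522 (interval, 0.321 to 0.835) from an estimated 54 and 29 fragments. The row of β-arr1 KO started 521 bases later, at the 3′ side of the gene, and the part of this in the ratio was not tested. Il17ra, the chain shared by the family, was at 15.9 and 15.1 FPKM, with a ratio of 0.949 (interval, 0.843 to 1.07). Il17rc, its partner for IL-17A and IL-17F, was at 11.5 and 9.05 FPKM, with a ratio of 0.786 (interval, 0.645 to 0.956). Il17rd, also known as Sef, an inhibitor of fibroblast growth factor signalling, was at 2.94 and 2.59 FPKM, with a ratio of 0.881. Il17d was the ligand of the family at 1 FPKM or more, at 6.49 FPKM in WT against 4.76 in β-arr1 KO, with a ratio of 0.733 (interval, 0.496 to 1.08). The bounds of its rows differed by 676 bases at the start and 255 at the end. Il25 was at 0.117 and 0.341 FPKM, an estimated 1 and 3 fragments.

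Receptor chains for IL-3, IL-4, IL-10 and IL-13 were at 1 FPKM or more while their ligands were not. Il10rb, an accessory chain shared by IL-10, IL-22 and lambda interferons, was at 22.4 FPKM in WT against 18.6 in β-arr1 KO, with a ratio of 0.831 (interval, 0.734 to 0.940). Il10ra, the private chain for IL-10, was at 3.51 and 3.14 FPKM, with a ratio of 0.894 (interval, 0.676 to 1.18). Il4ra, the chain for IL-4 and IL-13, was at 11.1 and 8.43 FPKM, with a ratio of 0.760 (interval, 0.666 to 0.867). Il13ra1, which pairs with Il4ra, was at 3.88 and 4.80 FPKM, with a ratio of 1.24 (interval, 0.980 to 1.57). Il3ra was at 16.0 and 13.8 FPKM, with a ratio of 0.863 (interval, 0.696 to 1.07). Genes named Il3, Il4 and Il13 were in neither table, and Il10 was listed in WT only, at 0.0923 FPKM or 1 estimated fragment. Of the 20 receptor chains at 1 FPKM or more, 12 had a ratio below 1 and 8 above 1. The interval left out 1 in 6 of the former and 2 of the latter. No shares over all genes stand beside these counts, so they describe these chains only. In the same libraries 13 of 14 microglia and macrophage markers had a ratio below 1, from 0.645 for Cd68 to 1.046 for Cx3cr1, and the part of these cells in the receptor levels was not tested. Il16, whose product binds CD4, was at 0.978 and 1.37 FPKM, with a ratio of 1.404 (interval, 0.945 to 2.10).

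The remaining 27 genes stayed under 1 FPKM in both libraries. Their 45 listed values rested on at most 35 estimated fragments, and of 28 values at 3 fragments or fewer, 20 lay within 5% of 1, 2 or 3 fragments. Besides Il7r, the interval left out 1 for Il13ra2, the decoy receptor for IL-13, at 0.537 FPKM in WT against 0.0745 in β-arr1 KO. Its ratio was 0.139 (interval, 0.0149 to 0.636) from an estimated 11 and 2 fragments. Il20rb, a chain for IL-19 and related cytokines, was at 0.590 and 0.397 FPKM, with a ratio of 0.673 (interval, 0.271 to 1.60). The 14 genes listed in both tables under 0.5 FPKM, from 0.0350 to 0.491 FPKM, had intervals that included 1 without exception. They were the ligands Il5, Il12a, Il19, Il23a and Il25 and the receptor chains Il1r2, Il1rapl1, Il2rb, Il9r, Il12rb2, Il17re, Il22ra1, Il23r and Il28ra.

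Of the 27 genes, 9 were listed in a single table. Il10, Il27 (0.196 FPKM), Il18r1, Il27ra and Il31ra were listed in WT only. Il27ra was at 0.311 FPKM, an estimated 7 fragments, and its row overlapped that of Palm3, which was at 1.45 and 2.10 FPKM. Il1b, Il17b, Il17c and Il12rb1 were listed in β-arr1 KO only, with an estimated 4 fragments at most. Il17c was at 0.418 FPKM, Il17b at 0.388 FPKM and Il12rb1 at 0.0377 FPKM in β-arr1 KO. For the 8 genes other than Il27ra, at an estimated 4 fragments or fewer, no difference between the libraries was detectable.

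**Figure D4:**
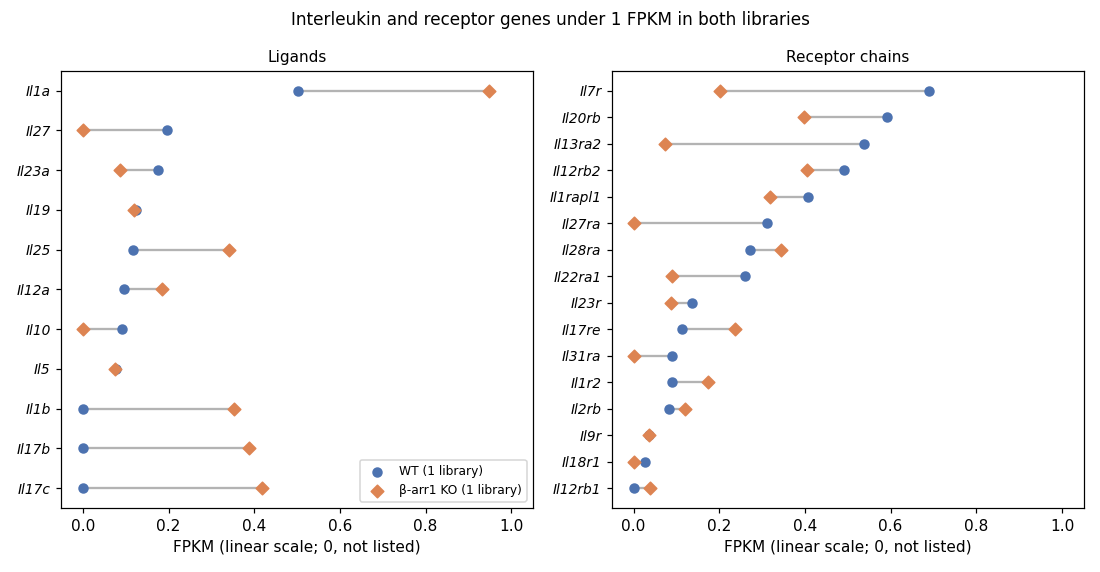
FPKM (linear scale) of the 27 genes under 1 FPKM in both libraries, WT (circles) and β-arr1 KO (diamonds), with 0 for a gene that is not listed. Il1a, at 0.503 and 0.947 FPKM, and Il7r, at 0.689 and 0.201 FPKM, are the highest ligand and receptor chain.

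Of 14 sets of a ligand with its receptor chains, 7 had all chains at 1 FPKM or more in at least one library. In 3 of these, IL-6, IL-11 and IL-33, the ligand was at that level too. In the other 4, IL-1α, IL-1β, IL-10 and IL-25, the chains were present and the ligand was under 1 FPKM. For IL-7, IL-15 and IL-18 the ligand was present and Il7r, Il2rb or Il18r1 was under 1 FPKM.

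Genes with other names that work with interleukins were mostly within the limits. Among 21 partner chains and related cytokines, 19 were at 1 FPKM or more, 2 rose, 2 fell, and the median log2 ratio was -0.32. Clcf1, a cytokine of the gp130 family, rose from 42.3 to 96.8 FPKM, with a ratio of 2.29 (interval, 2.15 to 2.44). Its rows did not have the same bounds in both tables. Tslp, an epithelial cytokine related to IL-7, rose from 1.304 to 3.368 FPKM, with a ratio of 2.58 (interval, 1.29 to 5.51). Lifr, which pairs with Il6st, fell from 2.06 to 1.16 FPKM, with a ratio of 0.563 (interval, 0.440 to 0.718). Ebi3, the partner of Il27, fell from 4.19 to 2.74 FPKM, and its interval of 0.386 to 1.09 included 1.

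A list of 28 genes of JAK and STAT signalling included JAK kinases, STAT factors, SOCS and PIAS inhibitors, phosphatases and adaptors. Of these, 27 were at 1 FPKM or more, 2 rose, none fell, and the median log2 ratio was -0.07. Socs1, an inhibitor of JAK kinases, rose from 2 to 3.82 FPKM, with a ratio of 1.91 (interval, 1.09 to 3.46). Socs4 rose from 5.28 to 8.76 FPKM, with a ratio of 1.66 (interval, 1.45 to 1.90), and its bounds differed between the tables and overlapped the row of Wdhd1. The phosphatase Ptpn11 had the highest level, 60.7 and 58.5 FPKM. A list of 25 genes of IL-1 and IL-17 receptor signalling included adaptors, kinases, NF-κB subunits and their regulators, and Zc3h12a. Of these, 23 were at 1 FPKM or more, none rose and Zc3h12a fell. Irak2 was counted as below the limit because a single table listed it. The median log2 ratio of the list was 0.00443. Zc3h12a, an RNase that degrades Il6 mRNA, fell from 7.22 to 3.28 FPKM, with a ratio of 0.454 (interval, 0.346 to 0.592). Irak2, a kinase of the IL-1 receptor complex, was at 17.0 FPKM in the WT table and missing from the β-arr1 KO table, and its row overlapped that of Tatdn2, which was at 19.97 and 27.62 FPKM. Whether the missing row means absent RNA was not tested. Of all genes at 1 FPKM or more, 227 were listed in WT only. They included Atp6ap1, a subunit of the proton pump that all cells use, at 176 FPKM. Of the 25 genes, Rela, a subunit of NF-κB, had the highest mean level of both libraries, with 30.7 and 32.4 FPKM.

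Among 18 genes of processing and release, 10 were at 1 FPKM or more, none rose and 2 fell, with a median log2 ratio of -0.14. Casp4, an inflammatory caspase, fell from 2.58 to 1.21 FPKM, with a ratio of 0.470 (interval, 0.265 to 0.809). Aim2, a sensor of cytosolic DNA, fell from 2.85 to 1.72 FPKM, with a ratio of 0.605 (interval, 0.408 to 0.891). Casp1, which activates IL-1β and IL-18, was at 7.39 and 5.67 FPKM, with a ratio of 0.767 and an interval of 0.558 to 1.051. Adam10, a protease that sheds Il6ra, had the highest level, 43.0 and 46.9 FPKM. Counts in these lists can be read beside the 17.8% of all genes, or 14.6% of genes in both tables, past the limits.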

How the data were processed

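RNA sequencing libraries of cultured DG astrocytes, 1 per genotype, were compared, with groups taken from the genotype labels. Read pairs had been aligned to mm9 with TopHat 1.4.0 (per the submitters' processing notes) and expression estimated with Cufflinks (version not given in the sources used here), and the authors deposited 1 FPKM value per gene and library, so that depth and transcript length were already scaled. The tables held 15417 and 15457 rows with values above 0.

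Tables were joined by gene symbol, the highest row was kept where a symbol repeated, and a gene in a single table was given 0 in the other. Ratios were computed directly, with nothing added, where a gene had 1 FPKM or more in either table. With 1 library per genotype no test was made. Depth was estimated from genes under 0.15 FPKM with 1 GENCODE transcript over 1000 bases (425 genes in WT, 448 in β-arr1 KO), of which 68.5% and 68.3% lay within 5% of 1, 2 or 3 fragments after 170 bases were taken off the length. Fragments per gene used the longest transcript. Intervals take the Clopper-Pearson bounds of a library's share in both libraries' fragments, shifted to the FPKM ratio. They cover counting error only, and expression of a shorter transcript makes them too narrow. All 57 genes matched the annotation of NCBIM37, the assembly also named mm9, on the same chromosome, and 1 was added to each start. The computation was tested on simulated data.

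Every gene of the set is named, with values where it reached 0.5 FPKM or was listed once, and otherwise by range. In the other lists, genes past the limits and the highest gene are named. Not every gene that this takes is reported here. Casp1, Atp6ap1 and the marker genes with values were chosen after their values were seen. The set, the lists and the motifs were chosen with earlier results of these data known. Shares over genes in both tables, and the intervals from the median transcript length, were added after seeing the data. Alternatives were other minimum levels, limits, pseudocounts and scalings, summed rows, and genes with equal bounds. Computations ran in Python 3.11.15 (numpy 2.4.6, pandas 2.3.3, scipy 1.17.1), and plots were drawn in matplotlib 3.10.9.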

Additional observations from a re-analysis of the deposited data

How the results depend on the processing

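The number of ligands past the limits was 2 of 9, and became 10 of 18 at a minimum of 0.1 FPKM. It was 1 of 4 at a minimum of 5 FPKM and 1 of 9 with limits of 2 and 1/2. With the same locus bounds in both tables it was 1 of 5. For receptor chains it was 3 of 20, and became 10 of 32 at a minimum of 0.1 FPKM and 5 of 23 at 0.5 FPKM. With limits of 2 and 1/2 it was 1 of 20. The shares of all genes given above are for the main setting, and none stands beside these other counts. The lower minimum admits more genes with few fragments. The median log2 ratio of the ligands was 0.0734, and became 0.263 at a minimum of 0.1 FPKM, -0.166 at 5 FPKM and -0.183 at 1 FPKM in both libraries, so it has no stable sign. That of the receptor chains stayed below 0 under the alternatives run, from -0.194 to -0.0643. Across 7 alternatives for single genes (2 pseudocounts, 3 scalings and 2 ways to sum rows), 28 of 30 genes kept their call. The exceptions were Il1rap, at 1.49 with 1 FPKM added, and Il33, at 1.503 with the libraries rescaled to the same total, where 3 ligands were past the limits, 1 higher and 2 lower. With the median transcript length, an alternative added after seeing the data, 12 intervals left out 1 in place of 14, and Il33 and Il1rn included it. No paired analysis was possible because each genotype has 1 library.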
